A study of Mus musculus with 4 samples.

Results

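The 10 genes described here code for the chains of non-muscle myosin II and for the enzymes that set its activity. They were chosen by gene name (Myh9, Myh10, Myl6, Myl9, Myl12a, Myl12b, Mylk, Ppp1r12a, Rock1 and Rock2) from the 55573 genes of the deposited table. Non-muscle myosin II is the motor that pulls on actin filaments in cells without, or before, a sarcomere. A molecule holds a pair of heavy chains, each with an essential light chain that stiffens its neck and a regulatory light chain that works as its switch. Phosphorylation of the regulatory light chain by myosin light chain kinase or by the kinases ROCK1 and ROCK2 turns the motor on, and myosin phosphatase, which the ROCKs inhibit, turns it off. In myoblasts this motor serves migration, cell division and the cortical tension around fusion.

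Ribosome-protected RNA fragments were sequenced from primary myoblasts, dividing muscle precursor cells obtained by enzymatic digestion of hind-limb muscle from mice aged 3 weeks, on day 2 of proliferation in medium with FGF. All cultures received cycloheximide, which stalls elongating ribosomes, before lysis, for a time on which the labels and the design text differ. The wild-type (WT) group had 2 libraries, and the group labelled eIF5A-KO had 2, called KO 1 and KO 2 below. The study describes its knockout as induced by tamoxifen through Pax7-CreERT2 acting on floxed eIF5A alleles, and the controls for these cells as WT littermates. It gives the genotype of its WT control mice in more than 1 way, with and without the Cre allele, so whether the WT cells here carried Cre is not known. Deletion is directed to cells that express Pax7, so cells of other lineages in the culture would be expected to keep the gene. The share of the cultured cells that had lost it was not measured here. eIF5A is a translation factor known for helping ribosomes past runs of proline codons. Although the titles read Polysome-Seq, the protocol given for RNA extraction is one of nuclease digestion and recovery of protected fragments, and the term used here is ribosome-protected signal. The study speaks of duplicate experiments, but nothing in the labels says that libraries of a group came from separate animals or cultures, so each p-value measures the spread between these libraries, which may be technical.

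Each library held between 642429 and 704006 recovered reads, of which 33.9% to 41.5% fell on protein-coding genes in the WT libraries and 59.2% to 65.4% in the libraries labelled KO. The library sizes by which the authors divided were not these totals. They were 602863 and 471136 for WT 1 and WT 2, and larger, 906990 and 807705, for KO 1 and KO 2. Eif5a, the targeted gene, had 34.9 and 65.2 RPKM (reads divided by the length of the gene and by the authors' library size) in WT 1 and WT 2, and 60.3 and 59.4 RPKM in KO 1 and KO 2. The signal of the targeted gene was therefore not lower under the KO label, and the libraries are named by their labels only. Myoblast markers summed to 346 and 204 RPKM in the WT libraries and to 101 and 123 RPKM in those labelled KO. Myf5 was listed at 0 in KO 2, and had 8 and 4 reads in WT 1 and WT 2 and 2 reads in KO 1. Msc had 2 reads in WT 1 and Myf6 1 read in WT 2, and neither had reads in any other library. Counts this low do not show a loss, and these genes were named after their values were seen.

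None of the 10 genes passed the test for a difference between the groups. All 10 passed the filter of a mean of at least 1 RPKM, and 0 of them were called by limma at an adjusted p under 0.05, against 12 of all 11363 tested genes (0.106%). All 10 are protein-coding, and of the 9877 tested protein-coding genes 0 were called too, with a smallest adjusted p of 0.113 (limma). The 12 called genes were thus of other types. At an unadjusted p under 0.05 the count of members was 0 as well. No member was more than 2-fold lower with an unadjusted p under 0.05, where 4.29% of all tested genes were, and none was more than 2-fold higher, where 2.67% were. The log2 fold changes, on the log2(RPKM + 1) scale and as KO label minus WT, ran from −0.87 for Myl12b to 0.31 for Ppp1r12a, with 6 above 0 and 4 below. Their median was 0.08, beside 0.00026 over all tested genes and 0.049 over the protein-coding ones. The adjusted p-values from limma ran from 0.691 to 0.985. These values do not show that the genes were alike in both groups, because the intervals were wide. The narrowest 95% interval, that of Myl6, ran from −0.84 to 1.19, and so held changes of about 2-fold in the higher direction. In bulk cultures such as these, ribosome-protected signal alone cannot tell apart fewer cells of a type, less RNA per cell and less translation of each RNA.

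**Figure D1:**
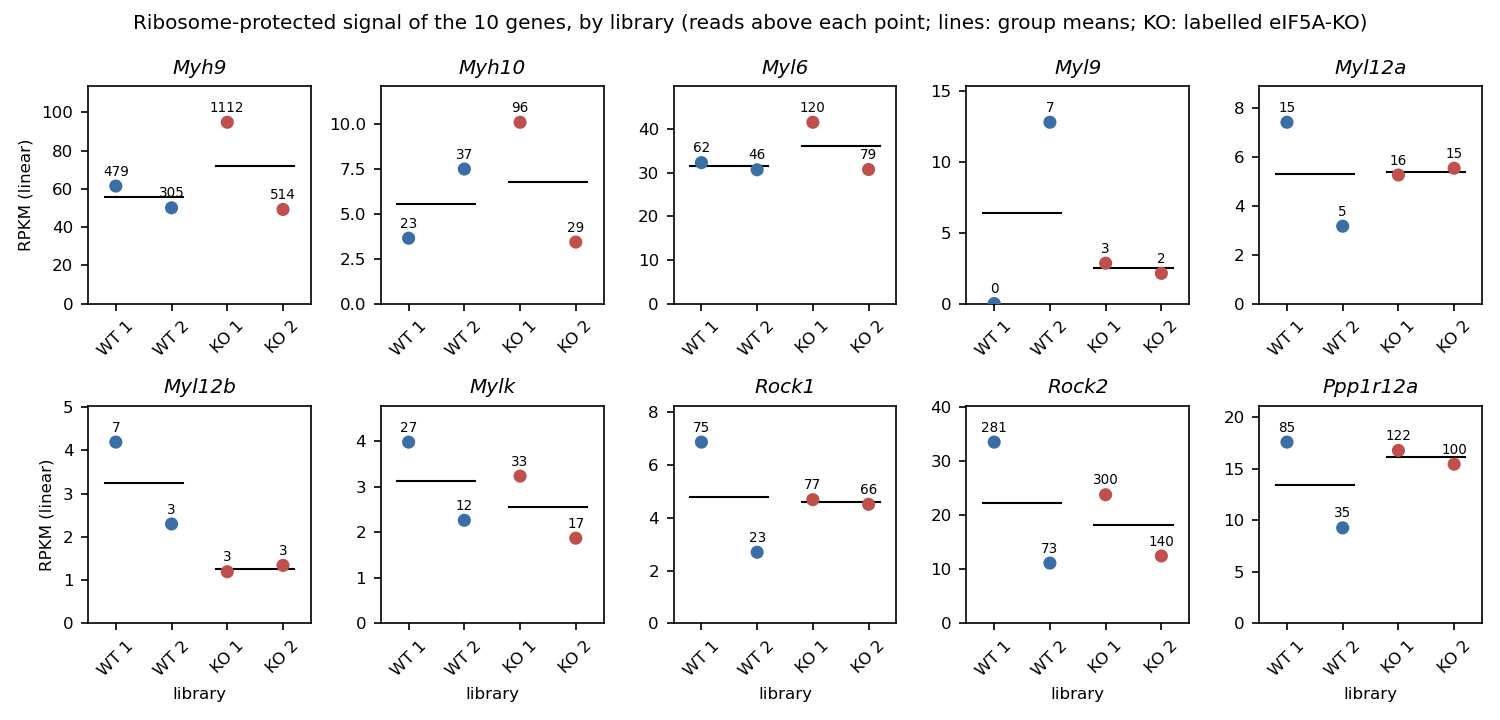
Ribosome-protected signal (RPKM, linear axes that start at 0 and differ between panels) of the 10 genes in each of the 4 libraries, with the recovered reads printed above each point and a line at each group mean (n = 2). Myl12b is the only panel in which both points labelled KO (1.19 and 1.34 RPKM) lie below both WT points (4.19 and 2.30 RPKM).

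The heavy chains carry the motor domain and the coiled-coil tail that bundles molecules into filaments. Myh9 codes for heavy chain IIA and lies at chr15:77760587-77842175 on the minus strand (GRCm38, also called mm10). It had 61.5 and 50.1 RPKM in WT 1 and WT 2, and 94.8 and 49.2 RPKM in KO 1 and KO 2. KO 1 stood above the other 3 libraries, KO 2 lay just below both WT libraries, and the groups overlapped. The group means were 55.8 ± 8.05 (SD, n = 2) and 72.0 ± 32.3 RPKM (SD, n = 2), and the log2 fold change was 0.30 (standard error, SE, 0.50, limma adjusted p = 0.858). Myh9 was the most deeply read member, with 2410 reads over the 4 libraries, and its mean level was above that of 98.7% of protein-coding genes. Myh10, the gene of heavy chain IIB at chr11:68691559-68816632 on the plus strand, had 3.65 and 7.51 RPKM in the WT libraries and 10.1 and 3.43 RPKM in those labelled KO. The order of its libraries crossed between the groups, with WT 1 and KO 2 low and WT 2 and KO 1 high. Its log2 fold change was 0.16 (SE 0.58, limma adjusted p = 0.941), and it rested on 185 reads.

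Within a library, the signal over the coding length of Myh9 was 21.4 and 8.47 times that of Myh10 in WT 1 and WT 2, and 11.9 and 18.2 times in KO 1 and KO 2. Heavy chain IIA therefore held the larger signal in all 4 libraries, and both ratios labelled KO lay between the WT ratios. The other myosin II heavy chains were close to the limit of detection. Myh14 (heavy chain IIC) and Myh11 (the smooth muscle heavy chain) stayed under the filter, at no more than 1.14 RPKM in any library, and Myh14 was listed at 0 in KO 2. Of the 5851 stretches of 30 bases in the Myh9 coding sequence, 103 also occur in that of Myh10, and how reads on them were assigned is not known, which bears most on the thinly read Myh10 and on these ratios.

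**Figure D2:**
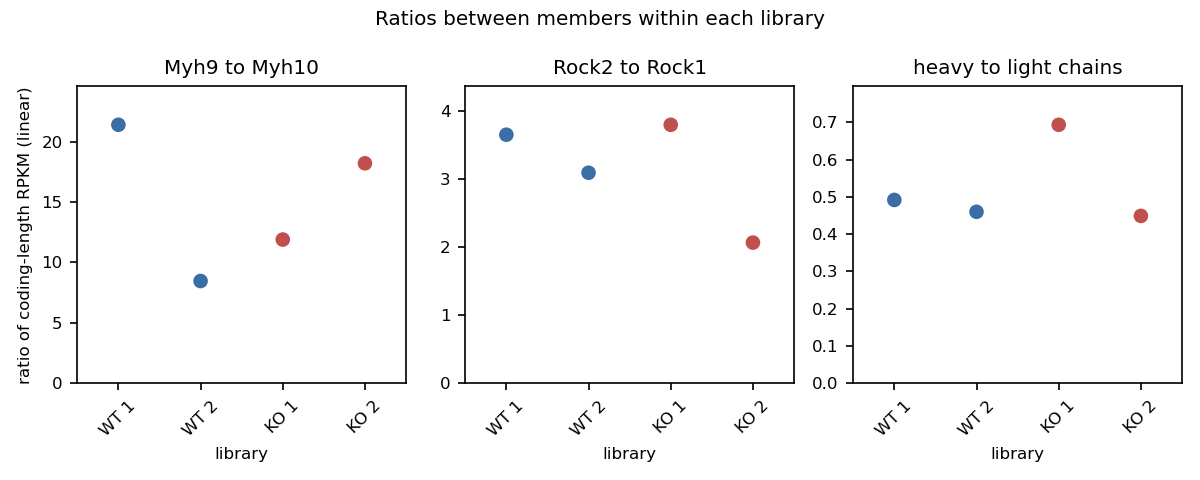
Ratios of RPKM over the coding length between members, within each of the 4 libraries (linear axes that start at 0): Myh9 to Myh10, Rock2 to Rock1, and the summed heavy chains (Myh9 and Myh10) to the summed light chains (Myl6, Myl9, Myl12a and Myl12b). The points labelled KO lie between the WT points for Myh9 to Myh10 and on either side of them in the other two panels.

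Myl6 codes for the essential light chain and lies at chr10:128490860-128494145 on the minus strand. It had 32.3 and 30.6 RPKM in WT 1 and WT 2, then 41.5 and 30.7 RPKM in those labelled KO. Apart from KO 1, the libraries differed by little, and KO 2 lay between the WT values. The log2 fold change was 0.18, with the smallest standard error of the members (0.41; adjusted p = 0.901, limma). The coding sequence takes 14.9% of the gene length by which the authors divided, so its RPKM understates the density of footprints on the coding sequence more than for any other member. Of its 30-base coding stretches, 79.3% also occur in transcripts of other genes, most of them in the processed pseudogene Gm10080. Whether reads that match several places were kept is not given in the sources used here.

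The regulatory light chains come from 3 genes with nearly the same protein. Over 172 codons, Myl12a and Myl12b were 97.7% identical in amino acids and 96.5% in bases, while Myl9 was 94.2% and 93.6% identical to them in amino acids. The 30 bases around the phosphorylated pair of residues are printed here because they are the switch itself and because a footprint there cannot tell Myl12a from Myl12b. The capitals mark codons 19 and 20, counted from the start codon, which code for the threonine and the serine that light chain kinase and the ROCKs phosphorylate. The windows are exonic and coding, at chr2:156778587-156778616 (plus strand) for Myl9, chr17:70996809-70996838 (minus strand) for Myl12a and chr17:70977160-70977189 (minus strand) for Myl12b, and are written 5′ to 3′ along the mRNA.
Myl9: ccccagagggctACGTCCaatgtcttcgcc
Myl12a: cctcagcgcgcaACCTCCaatgtgttcgcc
Myl12b: cctcagcgcgcaACCTCCaatgtgttcgcc
The Myl12a and Myl12b windows are the same, base for base, so a footprint lying in this window matches both genes. Over the whole coding sequence, Myl12a and Myl12b share 294 of 487 stretches of 30 bases, and Myl9 shares 6 of its 487 with either. A further gene model on the same strand, named Gm49909 in the table and listed at 0 in all 4 libraries, overlaps 67.1% of the coding bases of Myl12a and 100% of those of Myl12b. With all other gene models counted, that one included, 95.5% of the stretches of Myl12a, 100% of those of Myl12b and 1.23% of those of Myl9 occur elsewhere. The division of reads between Myl12a and Myl12b is uncertain over the stretches they share. If reads in overlapping gene models were set aside as ambiguous, coding reads of both genes would also be missing from the table.

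Myl12b, at chr17:70973133-70990890 on the minus strand, was the only member whose groups did not overlap. It had 4.19 and 2.30 RPKM in WT 1 and WT 2, and 1.19 and 1.34 RPKM in KO 1 and KO 2. Among all tested genes, 20.3% had groups that did not overlap with the lower values under the KO label, and 20.1% with the higher values there, against 1 and 0 of the 10 members. The log2 fold change of −0.87 had a standard error of 0.48 and a 95% interval from −2.05 to 0.31 (adjusted p = 0.691, limma). The values rest on 7 and 3 reads in the WT libraries and 3 and 3 reads in those labelled KO, so the difference between WT 2 and the libraries labelled KO came from library size and not from reads. The ratio of summed reads per library size, KO label to WT, was 0.376 with an exact 95% interval from 0.112 to 1.14, which covers counting error only. Under every alternative that kept Myl12b, the estimate stayed below 0. With the libraries scaled to the same sum it was −0.48, where the median of all tested genes was 0.47.

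Myl12a, at chr17:70993656-71002878 on the minus strand, had 7.41 and 3.16 RPKM in the WT libraries and 5.25 and 5.53 RPKM in those labelled KO. Both values labelled KO lay between the WT values, and the log2 fold change was 0.11 (SE 0.46, limma adjusted p = 0.948). Of the reads given to either gene, Myl12b took 7 of 22 in WT 1 and 3 of 8 in WT 2, against 3 of 19 in KO 1 and 3 of 18 in KO 2. As shares these were 31.8% (95% Wilson interval 16.4 to 52.7) and 37.5% (13.7 to 69.4), against 15.8% (5.52 to 37.6) and 16.7% (5.84 to 39.2). The intervals of the single libraries overlapped, and the difference between the groups was not tested. Added together, the signal of both genes was 11.6 and 5.46 RPKM in WT 1 and WT 2, and 6.44 and 6.87 RPKM in KO 1 and KO 2, with both values labelled KO between the WT values.

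Myl9, at chr2:156775420-156781658 on the plus strand, is the regulatory light chain gene best known from smooth muscle. It was listed at 0 in WT 1 and had 12.8 RPKM in WT 2, 2.85 RPKM in KO 1 and 2.13 RPKM in KO 2. The highest and the lowest value were both WT libraries. Only 12 reads lay behind these levels, and 0 reads in WT 1 allow a level of up to 4.28 RPKM (3 reads). Its standard error, 1.18, was the largest of the members, around a log2 fold change of −0.10 (adjusted p = 0.985, limma). With a pseudocount of 0.1 in place of 1 the log2 fold change was 1.18, since the value at 0 then weighs more. The ratio of summed reads per library size was 0.447 (exact 95% interval 0.112 to 1.64).

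Mylk codes for myosin light chain kinase, which calcium signals activate, and lies at chr16:34745210-35002420 on the plus strand. It had 3.98 and 2.26 RPKM in WT 1 and WT 2, then 3.23 and 1.87 RPKM in those labelled KO. The values of the groups interleaved, and the log2 fold change was −0.21 (SE 0.46, limma adjusted p = 0.892). Antisense gene models overlap 8.91% of its coding bases, and the sources used here do not say whether strand was counted. It had 89 reads over the 4 libraries.

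The kinases ROCK1 and ROCK2 act downstream of the small GTPase RhoA. Rock2, at chr12:16894895-16987823 on the plus strand, had 33.5 and 11.1 RPKM in WT 1 and WT 2, and 23.8 and 12.5 RPKM in KO 1 and KO 2. WT 1 was the highest and WT 2 the lowest library, so the WT libraries alone spanned the values labelled KO. The log2 difference between WT 1 and WT 2 was 1.51, beside a log2 fold change between the groups of −0.16 (SE 0.63, limma adjusted p = 0.943), over 794 reads. Rock1, on the minus strand of chromosome 18, had 6.88 and 2.70 RPKM in the WT libraries and 4.69 and 4.52 RPKM in those labelled KO. It too had its extremes in the WT libraries, and its log2 fold change was 0.05 (SE 0.47, limma adjusted p = 0.977). Over the coding length, Rock2 had 3.65 and 3.10 times the signal of Rock1 in the WT libraries and 3.80 and 2.07 times in those labelled KO. Of the coding stretches of Rock1, 7.69% also occur in the pseudogene Gm5374.

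Ppp1r12a codes for MYPT1, the subunit that targets myosin phosphatase to the motor, and lies at chr10:108162193-108284475 on the plus strand. It had 17.6 and 9.26 RPKM in WT 1 and WT 2, and 16.8 and 15.4 RPKM in KO 1 and KO 2. WT 2 stood below the other 3 libraries, WT 1 was the highest, and the groups overlapped. The log2 fold change of 0.31 had a standard error of 0.45 (adjusted p = 0.830, limma). None of its coding stretches occurs in another gene, which also held for Rock2, so sharing of such stretches does not bear on these genes.

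**Figure D3:**
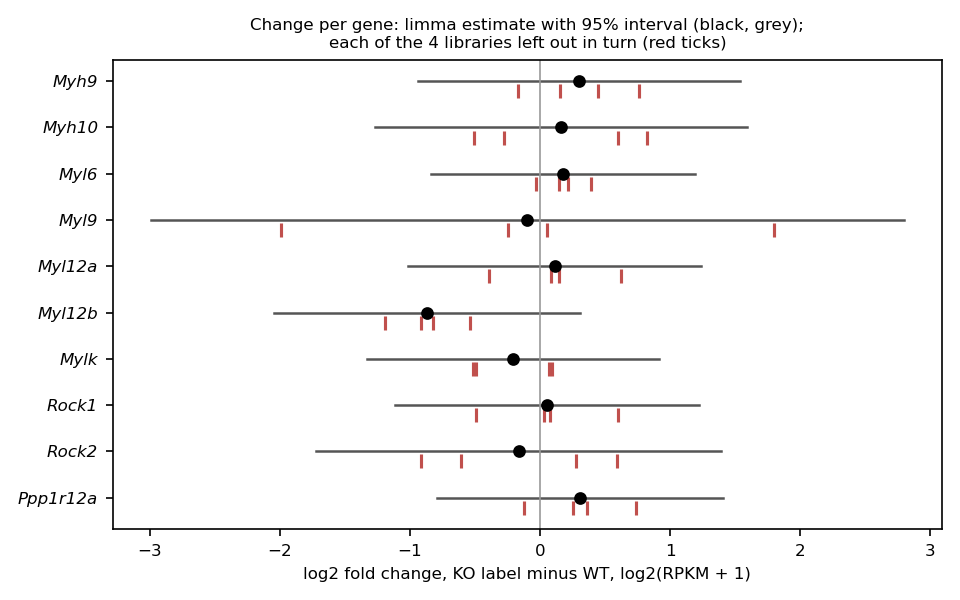
Log2 fold change of each of the 10 genes (horizontal axis, KO label minus WT, on the log2(RPKM + 1) scale), as the limma estimate (black point) with its 95% interval (grey line, n = 2 per group), and the estimates with each of the 4 libraries left out in turn (red ticks). All 10 intervals cross 0, and the ticks of every gene but Myl12b lie on both sides of 0.

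Levels can be compared between genes over the coding length, as RPKM recomputed with the coding length in place of the gene length, on the assumption that the counted reads lie in coding sequence, which the table cannot show and which is least sure for Myl12a and Myl12b. On that scale the means over the 4 libraries were 227 ± 35.1 (SD, n = 4) for Myl6, 140 ± 47.0 for Myh9, 67.6 ± 35.1 for Rock2 and 38.4 ± 9.80 for Ppp1r12a. Each of the first 3 was above the next gene in 4 of 4 libraries. Ppp1r12a and Myl12a (34.7 ± 11.3) were not separated beyond their spread, and Myl12a was above Rock1 (20.9 ± 7.62) in 4 of 4 libraries. Myl12b (12.1 ± 7.41), Myh10 (10.7 ± 5.59) and Myl9 (10.0 ± 12.8) could not be ordered, since Myl12b was above Myh10 in 2 of 4 libraries and Myh10 above Myl9 in 3. Mylk had the lowest mean, 5.46 ± 1.83, below Myl9 in 3 of 4 libraries. The summed signal of both heavy chains was 0.492 and 0.460 times that of the 4 light chains in WT 1 and WT 2, and 0.693 and 0.449 times in KO 1 and KO 2, with KO 1 the highest and KO 2 the lowest.

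The spread within a group was larger than the difference between the groups for nearly all members. In 9 of 10, the log2 difference between the libraries of at least 1 group exceeded the log2 fold change, as it did for 73.1% of all tested genes. The median log2 difference within the WT group was 0.86 over the members, beside 0.60 over all tested genes, and within the libraries labelled KO 0.36 beside 0.42. In both groups library 1 tended to be the higher: 6 of the 10 members (Myh9, Myl6, Mylk, Ppp1r12a, Rock1 and Rock2) were higher in WT 1 than in WT 2 and also higher in KO 1 than in KO 2, where 23.8% of all tested genes were. This count was made after the values were seen. The 10 genes together took 0.392% (95% Wilson interval 0.369 to 0.416) of the protein-coding reads in WT 1 and 0.251% (0.231 to 0.273) in WT 2, against 0.409% (0.391 to 0.428) in KO 1 and 0.251% (0.235 to 0.267) in KO 2. The share differed between libraries of a group beyond counting error and the values of the groups overlapped. Myh9 alone gave 45.4% to 59.1% of these reads.

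**Figure D4:**
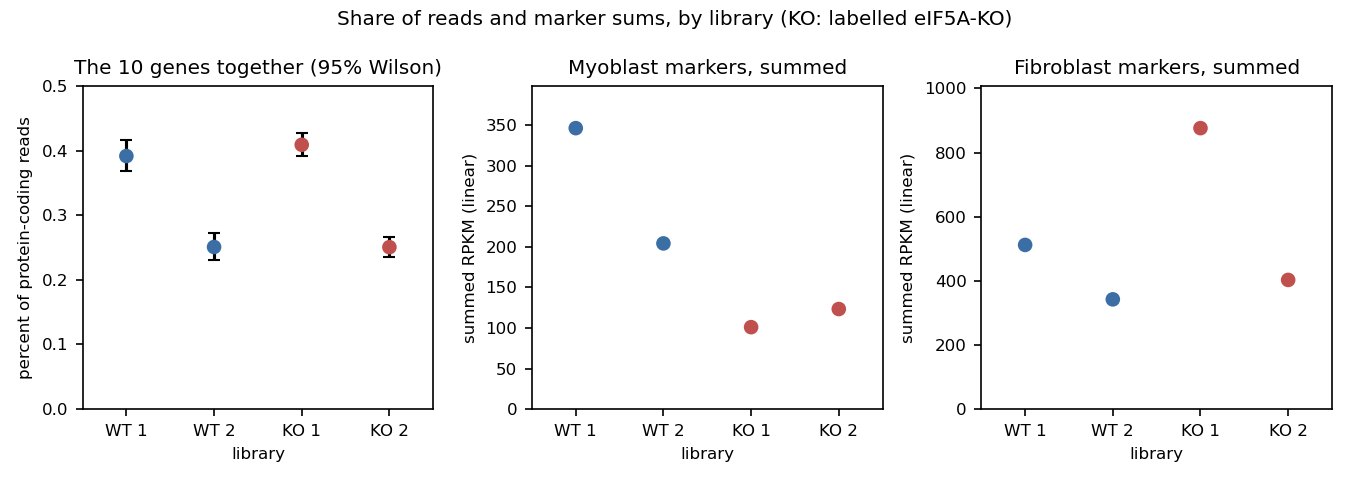
Share of protein-coding reads on the 10 genes together (left, percent, with 95% Wilson intervals), and the summed RPKM of the myoblast markers (middle) and of the fibroblast markers (right) in each of the 4 libraries, on linear axes that start at 0. The share is near 0.4% in WT 1 and KO 1 and 0.251% in WT 2 and KO 2, while the myoblast sum separates the groups (204 and above in WT, 123 and below under the KO label).

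Markers of other cell types moved between these libraries too. The fibroblast markers, of which 11 of 12 were tested, summed to 512 and 342 RPKM in WT 1 and WT 2, and to 876 and 403 RPKM in KO 1 and KO 2. Within each group the library with the larger share of myosin reads also had the larger fibroblast sum and the larger endothelial sum, which was noticed after the values were seen. Their median log2 fold change was 0.51, with 8 above 0 and 3 below, from −0.98 for Fbln1 to 1.39 for Postn, and Tcf21 was listed at 0 in all libraries. The myoblast markers lay below 0 in 9 of the 9 tested (of 11 listed), with a median of −1.27, from −3.36 for Myog to −0.02 for Itga7. Myog rested on WT 1 (91.0 RPKM, against 4.26 in WT 2), and its value without that library was −1.29. The endothelial sum was 112 and 106 RPKM against 149 and 118 (6 of 6 tested above 0, from 0.05 for Pecam1 to 1.01 for Kdr). The smooth muscle and pericyte sum was 226 and 183 RPKM against 133 and 145 (1 of 7 tested above 0, from −1.27 for Des to 0.32 for Cspg4), with Tagln at 0 throughout. Des is also in the myoblast list, so the sums of these lists are not independent. It had 46.0 and 40.1 RPKM in WT 1 and WT 2, and 13.8 and 21.4 RPKM in KO 1 and KO 2. The immune sum was 45.7 and 60.6 RPKM against 56.9 and 49.5 (2 of 4 tested above 0, from −1.16 for Lyz2 to 1.33 for Adgre1), with Itgam at 0 throughout. Fbln1 was −0.58 without WT 2, and Adgre1 0.84 without WT 1. The sign of Itga7 reversed without WT 1 (0.41) and without KO 2 (0.80), and that of Cspg4 without KO 1 (−0.12). None of these marker genes was called at an adjusted p under 0.05 by limma. The part of cell composition in the values of the 10 genes was not tested.

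The contrast moved with base composition, which differs between the members. Among 9869 tested protein-coding genes with a coding sequence, split by coding GC content into 10 bins of equal size, the median log2 fold change went from 0.37 in the bin with the lowest GC to −0.48 in the bin with the highest. Rock1 (38.6% GC) and Rock2 (41.7% GC) lie in the lowest bin, and their log2 fold changes of 0.05 and −0.16 were both below its median. With the GC trend removed, these became −0.48 and −0.58, on the log2 scale, and neither was called. Ppp1r12a (47.1% GC) lies in the next bin, and its 0.31 was close to that bin's median of 0.29. With the trend removed it was 0.09. Myh9 (57.3% GC) and Mylk (56.6% GC) share bin 8, with a median of −0.17, and had 0.30 and −0.21, or 0.46 and −0.07 with the trend removed. The part of base composition in these values beyond the fit with its trend removed was not tested.

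**Figure D5:**
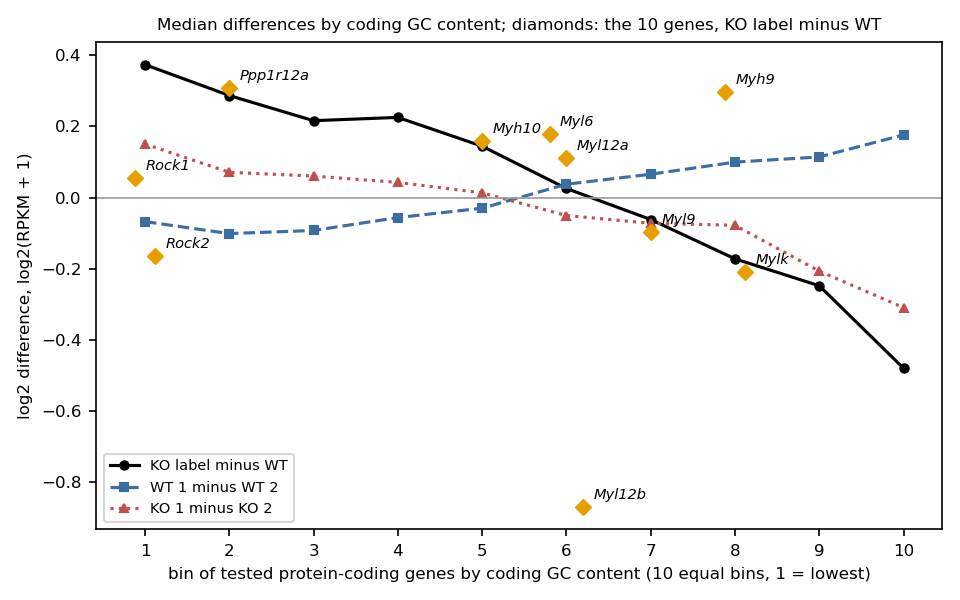
Median log2 difference (vertical axis, log2(RPKM + 1) scale) in each of 10 bins of 9869 tested protein-coding genes ordered by coding GC content (horizontal axis, 1 is the lowest), for KO label minus WT (black), WT 1 minus WT 2 (blue) and KO 1 minus KO 2 (red), with the 10 members' own KO label minus WT values as diamonds, offset sideways where they share a bin. The black line goes from 0.37 to −0.48, and Rock1 and Rock2 sit under it at the low-GC end.

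Runs of proline codons were counted in the members, since eIF5A is known to act on them. The longest run was 3 codons in Mylk, Rock1 and Rock2, 2 codons in Myh9, Myh10, Myl6 and Ppp1r12a, and 1 codon in the regulatory light chains. The runs of Mylk (codons 192 to 194, chr16:34874137-34874166, plus strand) and Rock2 (codons 4 to 6, chr12:16895190-16895219, plus strand) are shown with their proline codons in capitals, since that of Rock2 lies close to its start codon.
Mylk: actggccggCCTCCACCAcaggtcacctgg
Rock2: atgagccggCCCCCGCCGacggggaaaatg
The log2 fold changes of the genes with 3 in a row were −0.21, 0.05 and −0.16, all within 1 SE of 0. With the GC trend removed they were −0.07, −0.48 and −0.58, and none was called. The part of proline runs in these values was not tested. Footprint positions along the mRNA are not part of the table, so signal at these codons was not measured.

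Other genes of the pathway were taken from lists by role. None of those tested was called at an adjusted p under 0.05 by limma. Groups without overlap were common: 20.3% of all tested genes had them with the lower values under the KO label, and 20.1% with the higher. Arhgap35, Mprip, Cfl2 and Diaph3 were picked for the size of their difference, so the separation of their groups partly follows from that choice. Among 13 genes of small GTPases related to RhoA and of their activators and inhibitors, 7 lay above 0 and 6 below, with a median log2 fold change of 0.08. The highest levels there belonged to Rhoc, a small GTPase close to RhoA (111 and 152 RPKM in WT, 136 and 170 under the KO label), and Arhgdia, which holds such GTPases in the cytosol (137 and 164 RPKM, then 162 and 196). Arhgap35, a GTPase-activating protein that turns RhoA off, had 14.0 and 7.89 RPKM in WT and 2.77 and 4.87 RPKM under the KO label, groups that did not overlap (log2 fold change −1.29, adjusted p = 0.672, limma).

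The other kinases of the regulatory light chain were split evenly, 4 above and 4 below 0 of 8 tested, with a median of 0.01. Cdc42bpb, which codes for the kinase MRCK beta, had 27.2 and 19.9 RPKM in WT and 17.2 and 19.3 under the KO label, without overlap. Pak1 had 7.99 and 24.2 RPKM, then 19.3 and 19.2, with the extremes in the WT libraries. Of 7 tested phosphatase subunits and inhibitors, 2 lay above 0 and 5 below, with a median of −0.14. Ppp1ca, a catalytic subunit of protein phosphatase 1, had 49.4 and 50.5 RPKM in WT and 61.7 and 90.9 under the KO label, also without overlap, while the inhibitor gene Ppp1r14b had 34.8 and 22.3, then 13.0 and 31.6. Mprip, whose product ties myosin phosphatase and RhoA to actin, had 21.4 and 10.7 RPKM in WT and 5.38 and 6.41 under the KO label (log2 fold change −1.23, adjusted p = 0.672, limma), again without overlap. Without WT 1 its log2 fold change was −0.76.

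Other targets of the ROCKs and RhoA lay above 0 in 8 of 10 cases, with a median log2 fold change of 0.52. Cfl1, the main cofilin, which severs actin filaments and which ROCK restrains through LIM kinase, had 83.4 and 157 RPKM in WT and 151 and 187 under the KO label, and the actin-binding profilin gene Pfn1 had 112 and 230, then 184 and 277, both with overlap. Cfl2, the muscle cofilin, had 5.59 and 5.20 RPKM in WT and 13.5 and 12.5 under the KO label (log2 fold change 1.13, adjusted p = 0.660, limma), without overlap. The formin gene Diaph3 had 1.49 and 0.381 RPKM, then 4.75 and 2.89 (log2 fold change 1.35, adjusted p = 0.672, limma), likewise without overlap. Of 13 partners of myosin II and binders of its heavy chain, 10 lay above 0 and 3 below, with a median of 0.41. Actn4, an actin crosslinker, had 65.5 and 58.9 RPKM in WT and 83.7 and 55.8 under the KO label, with overlap.

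The sarcomeric myosin chains, which replace the non-muscle form as fibres mature, were weakly read. Only 5 of 13 passed the filter, with 1 above 0 and 4 below and a median of −0.87. Mylpf, the fast regulatory light chain, had 18.7 and 14.0 RPKM in WT and 4.15 and 5.83 under the KO label, without overlap (log2 fold change −1.54, adjusted p = 0.608, limma). Its values set beside those of Myl12a and Myl9, which overlapped between groups, do not show that the genes responded differently, as that difference was not tested. Myl4 had 3.58 and 0.458 RPKM in WT, then 2.85 and 0.801.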

How the data were processed

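Ribosome-protected fragments of 2 WT and 2 eIF5A-KO libraries were analysed, grouped by their titles. The authors deposited RPKM values per gene and library, with gene lengths. Per the labels and the study's methods, rRNA and tRNA reads were removed, reads were mapped to mm10 with TopHat2 and counted with HTSeq on the Ensembl release named in the study's methods; tool versions, strand and the handling of shared reads are not given in the sources used here. RPKM times gene length gave whole multiples of 1 step for 100% of values above 0 (tolerance 0.01), which recovered the reads. Wilson and exact intervals, and the limit of 3 reads for a value of 0, hold for counting error alone.

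The test was limma (version 3.58.1, R 4.3.3, trend) on log2(RPKM + 1). Genes averaging 1 RPKM or more over the 4 libraries were tested, with Benjamini-Hochberg adjustment over all 11363 tested genes. Fold changes of weakly read genes are understated on this scale. The smallest p of an exact permutation test (two-sided) between groups of 2 is 0.333. Scripts were tested on simulated data. Coding sequences, overlaps and printed sequences came from GENCODE M21 (GRCm38), in which 99.7% of the table's identifiers were found, and the longest complete coding sequence per gene was used; proteins were compared by translating it.

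The members and lists were chosen with earlier results of these data known. Genes named beside the 10 members were Eif5a, from each pathway list the 2 with the highest mean RPKM and any over 2-fold with an unadjusted p under 0.05, and from each marker list the highest and lowest log2 fold change. Markers named because they were listed at 0 were chosen after their values were seen. 1 gene that this rule names is not reported here. Alternatives were another pseudocount, 2 other filters, 3 other scalings, limma-voom on recovered reads, a GC correction, protein-coding genes only, each library left out, and the replicate number as a block. No chance or set test was made.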

Additional observations from a re-analysis of the deposited data

How the results depend on the processing

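No member was called at an adjusted p under 0.05 by limma under any alternative run (0 each time, also with each library left out). Over all genes the calls numbered 12, as with quantile normalization or a shared sum of protein-coding genes, 39 with limma-voom on recovered reads, and 0 under the other alternatives. Scaling to the same sum moved the median of all tested genes to 0.47, so values here are relative to the median of all genes. On that footing the member median kept its sign, between 0.01 and 0.14, except with a library left out, when it ran from −0.26 (without WT 2) to 0.33 (without WT 1) and was −0.21 without KO 1. Unshifted, scaling to the same sum put Myl9, Mylk and Rock2 above 0, and the same sum over protein-coding genes put Rock1 below 0, at −0.04. Direction reversed for Myl9 with a pseudocount of 0.1 (1.16) and for Rock1 with the GC trend removed (−0.51).

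With each library left out in turn, 13 of 40 estimates reversed, in 9 of the 10 members. Ranges were −0.17 to 0.76 for Myh9 (below 0 without KO 1), −0.50 to 0.82 for Myh10 (without WT 1 or KO 1), −0.034 to 0.39 for Myl6 (without KO 1), −1.99 to 1.80 for Myl9 (above 0 without WT 2 or KO 2), −0.40 to 0.62 for Myl12a, −0.12 to 0.74 for Ppp1r12a and −0.49 to 0.60 for Rock1 (these 3 below 0 without WT 2), −0.51 to 0.10 for Mylk and −0.92 to 0.59 for Rock2 (both above 0 without WT 1 or KO 2). Myl12b ran from −1.20 to −0.54. A lone library in a group is assumed to vary like the other group. At an unadjusted p under 0.05, 1 member passed without WT 1 and 2 without WT 2.

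A replicate block left every estimate as it was (member median 0.08) and called 0 members. Same-numbered libraries shared only a number, and the correlation of their deviations was 0.06. Myl9 and Myl12b were too thinly read (under 20 reads) for limma-voom, and Myl9, Myl12b, Mylk and Rock1 had under 5 RPKM on average and could not enter the stricter filter. Depth limits the regulatory light chains most, with 12 to 51 reads each over the 4 libraries.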
